A study of Eurytemora affinis with 15 samples.

Results

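The block described here is a set of 200 genes, out of 23728 in the table, whose transcripts stood high in 1 pool of male copepods, Tancarville 350 mg/L replicate 1, and low in both other pools of that group. Eurytemora affinis is a small calanoid copepod of estuaries, and the males came from the Seine. RNA was sequenced from pools of 30 whole adult males after 72 h in water alone (Control) or in elutriate, the water phase recovered from sediment. Sediment of 2 sites, Fatouville and Tancarville, was tested at 350 and 2500 mg/L, with 3 biological replicates in each of 5 groups. All animals were wild-caught and acclimatised at 15 psu and 15 °C on Rhodomonas salina algae, so that a pool mixes adults whose exact ages are not given.

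The members were chosen by their measured levels. A gene qualified when Tancarville 350 mg/L replicate 1 had a normalised count of at least 30 and at least 3 times the higher of replicates 2 and 3, which 309 genes met. Control 3 had to lie under 2 times the higher of Control 1 and 2, and Fatouville 350 mg/L replicate 2 under 4 times the higher of the other two. These limits removed 45 genes, 13 of them because both comparison libraries stood at 0, and left 264. The 200 with the highest ratio of replicate 1 to the higher of replicates 2 and 3 plus 1 are the block; their ratios ran from 770 down to 4.41, with a median of 13.1. A normalised count is the number of reads in a gene divided by 1 size factor per library. The levels in Tancarville 350 mg/L, and the limits on Control 3 and Fatouville 350 mg/L replicate 2, are therefore the selection and not results. None of the 6 libraries at 2500 mg/L entered it.

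Genes whose transcripts go up and down together over many samples form what is called a co-expression block. In an extract of whole animals such a block can follow an organ, a physiological state or a few individuals in the pool. More animals or cells carrying a transcript and more transcript per cell cannot be told apart in such libraries. The files pair no identifier with a gene name, so the members are given by identifier, their functions were not analysed here, and levels of cell type or stage markers could not be given beside them. All 200 have a LOC identifier.

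Each library held 13.64 to 17.21 M reads in genes, and Tancarville 350 mg/L replicate 1, with 16.4 M, was not set apart by depth. Its 2 fellow pools held 15.65 and 16.1 M.

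The highest-ranked member, LOC111705030, shows what the block looks like. It stood at 8637 normalised counts in Tancarville 350 mg/L replicate 1 and at 10.2 and 8.85 in replicates 2 and 3. In the controls it was at 8.45, 6.69 and 5.68, and at Fatouville 350 mg/L at 13.98, 30.1 and 15.4. At Fatouville 2500 mg/L it reached 9835, 8141 and 298. Tancarville 2500 mg/L gave 8.95 in replicate 1, 3795 in replicate 2 and 19892 in replicate 3. The gene was thus high in 1 pool of the group it was chosen in, in all 3 Fatouville pools at 2500 mg/L, and in 2 of 3 Tancarville pools at 2500 mg/L. The highest level of all lay outside the group used for the choice.

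LOC111710718, second in rank, also had the highest level of any member in the pool that defined the block. It stood at 8665 there, against 20.4 and 27.5 in replicates 2 and 3. Its controls were at 12.2, 28.7 and 4.73 and its Fatouville 350 mg/L pools at 39.9, 32.0 and 9.65. It was high in the same pools as the first gene, at 12606, 9830.0 and 456 at Fatouville 2500 mg/L and at 66.0, 4802 and 21997 at Tancarville 2500 mg/L. At the other end of the block, the last member was LOC111714298, with a rank ratio of 4.41. It stood at 343 in the defining pool and 74.5 and 76.7 in its fellows, at 61.0, 114 and 61.5 in the controls, and at 67.9, 79.0 and 52.1 at Fatouville 350 mg/L. At Fatouville 2500 mg/L it was at 415, 179 and 149, and at Tancarville 2500 mg/L at 145, 257 and 445, with no value of either group among the controls. The first gene outside the block, LOC111705349, had a rank ratio of 4.39 and 35.7 normalised counts in the defining pool. Over all members that pool's level ran from 31.9 to 8665, with 42 members under 100.

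**Figure D1:**
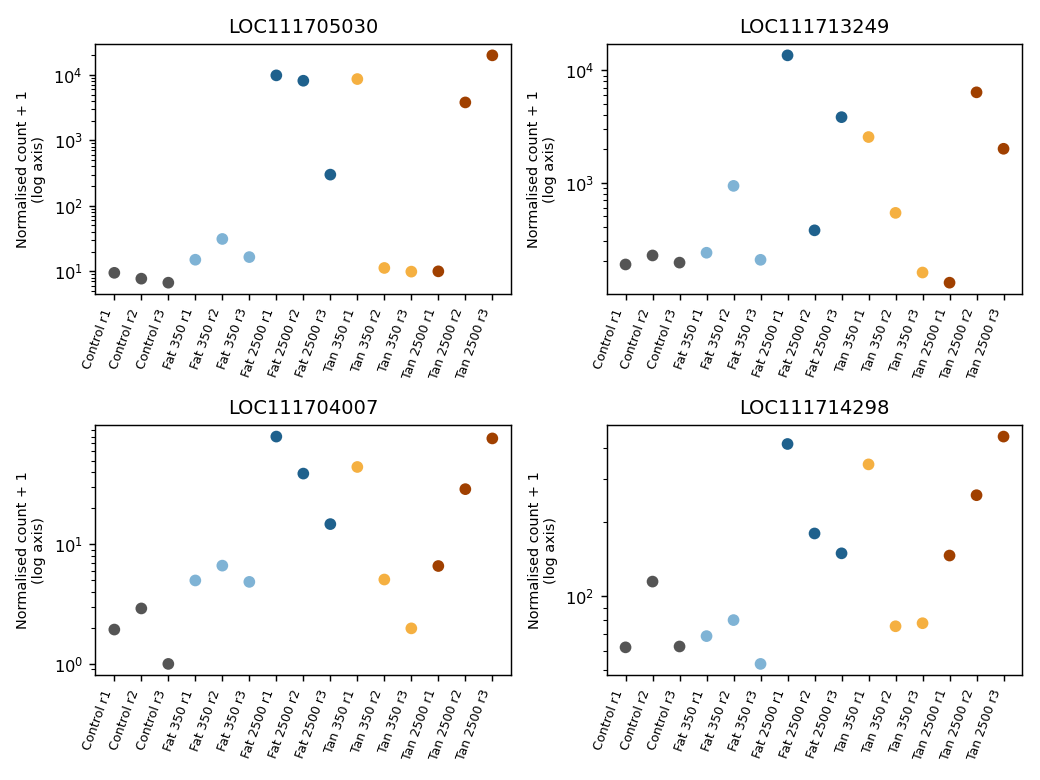
Normalised count plus 1 (log axis) of 4 members in each of the 15 libraries, coloured by group, with r1 to r3 the replicates. LOC111705030 and LOC111713249 have differences of opposite sign between pools at 2500 mg/L, LOC111704007 is a member of low level and LOC111714298 is the last member by rank.

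In the control pools the block was quiet but not silent. The median over the 200 members was 8.92, 11.5 and 7.57 normalised counts in Control 1, 2 and 3, against medians of 175 to 183 over the 18921 genes that passed a filter on low values. The mean over the controls was under 10 for 105 members and at least 100 for 7, with the highest at 205. Reads were found in each control for 182 members. No member was at 0 in every control, which follows from the strict limit on Control 3.

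Across the exposed pools the block's median spanned a wide range. It was 15.0, 17.4 and 9.65 at Fatouville 350 mg/L and 468, 245 and 58.4 at Fatouville 2500 mg/L. Tancarville 350 mg/L gave 273, 12.3 and 9.84, the pattern used for the choice, and Tancarville 2500 mg/L gave 15.7, 146 and 525. The defining pool was therefore not the one with the highest level, since Tancarville 2500 mg/L replicate 3 and Fatouville 2500 mg/L replicate 1 both stood above it. In Tancarville 2500 mg/L replicate 1 the median lay near those of the Fatouville 350 mg/L pools, while the fellow pools of that group were many times higher. On the log2(value + 1) scale, the median level was 3.35 ± 0.27 in Control, 3.87 ± 0.41 at Fatouville 350 mg/L, 7.57 ± 1.53 at Fatouville 2500 mg/L and 6.77 ± 2.52 at Tancarville 2500 mg/L (mean ± SD, n = 3). It was 5.09 ± 2.61 at Tancarville 350 mg/L.

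**Figure D2:**
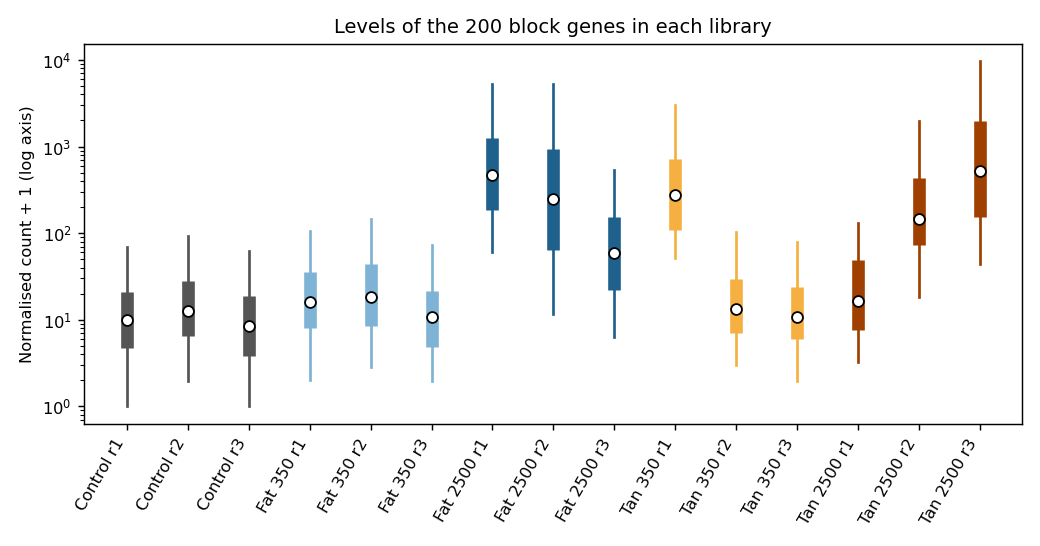
Levels of the 200 members in each library, as normalised count plus 1 (log axis), with r1 to r3 the replicates. White points are medians, thick bars run from the 25th to the 75th percentile and thin lines from the 5th to the 95th. The medians are 273 in Tancarville 350 r1, 525 in Tancarville 2500 r3 and 7.57 to 11.5 in the controls.

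These genes took up a measurable part of the RNA where they were high. The 200 members held 0.922% of the reads in genes in the defining pool (95% Wilson interval 0.918% to 0.927%). They held 2.62% in Tancarville 2500 mg/L replicate 3 (2.61% to 2.62%), 1.74% in Fatouville 2500 mg/L replicate 1 (1.73% to 1.75%) and 1.42% in Fatouville 2500 mg/L replicate 2 (1.41% to 1.42%). The share was 0.626% in Tancarville 2500 mg/L replicate 2 (0.622% to 0.630%) and 0.233% in Fatouville 2500 mg/L replicate 3 (0.231% to 0.236%). Every other library, controls included, gave 0.022% to 0.0601%. The intervals cover counting error only, which is small beside the spread between pools of 1 group.

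Only 6 members had their highest level of all 15 libraries in the defining pool. Of the other 194, 128 were highest in Tancarville 2500 mg/L replicate 3, 61 in Fatouville 2500 mg/L replicate 1, 3 in Fatouville 2500 mg/L replicate 2 and 2 in Tancarville 2500 mg/L replicate 2. Relative to the defining pool, the members stood at a median of 1.56 times in Fatouville 2500 mg/L replicate 1 and 2.00 times in Tancarville 2500 mg/L replicate 3. The ratios were 0.897 in Fatouville 2500 mg/L replicate 2, 0.608 in Tancarville 2500 mg/L replicate 2 and 0.206 in Fatouville 2500 mg/L replicate 3 (all on value + 1).

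The pools differed in how evenly the members moved. From the 5th to the 95th percentile of members, the ratio to the defining pool ran from 0.767 to 3.97 in Fatouville 2500 mg/L replicate 1 and from 0.184 to 1.54 in Tancarville 2500 mg/L replicate 2. It ran from 0.0926 to 6.81 in Fatouville 2500 mg/L replicate 2 and from 0.464 to 8.61 in Tancarville 2500 mg/L replicate 3. The first of these 4 libraries thus held the members in proportions nearest to those of the defining pool. Across members, log2 levels in the defining pool correlated at r = 0.917 with Fatouville 2500 mg/L replicate 1, 0.885 with Tancarville 2500 mg/L replicate 2, 0.835 with Tancarville 2500 mg/L replicate 3 and 0.758 with Fatouville 2500 mg/L replicate 2 (200 genes each, which share the members' own abundance and are not independent replicates). The controls gave 0.467, 0.526 and 0.494.

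A count per library shows how much of the block was raised where. A member was counted when its value was at least 10 and at least 3 times the highest control. In the defining pool, whose level chose the members, all 200 met this (background 2.28%), from which nothing is read. At Fatouville 2500 mg/L 198 members met it in replicate 1 (background 3.92%), 157 in replicate 2 (1.96%) and 115 in replicate 3 (1.79%). At Tancarville 2500 mg/L the count was 9 in replicate 1 (0.312%), 169 in replicate 2 (1.89%) and 195 in replicate 3 (3.63%). The Fatouville 350 mg/L pools had 6, 16 and 0 members (0.137%, 1.82% and 0.0423%), and replicates 2 and 3 of Tancarville 350 mg/L had 3 and 4 (0.708% and 0.0846%). The backgrounds were percentages of 18921 genes, members among them. At least 57.5% of the members met it in each of the 5 high pools at 2500 mg/L and in the defining pool, and 8% or fewer in each of the other 6 exposed pools.

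**Figure D3:**
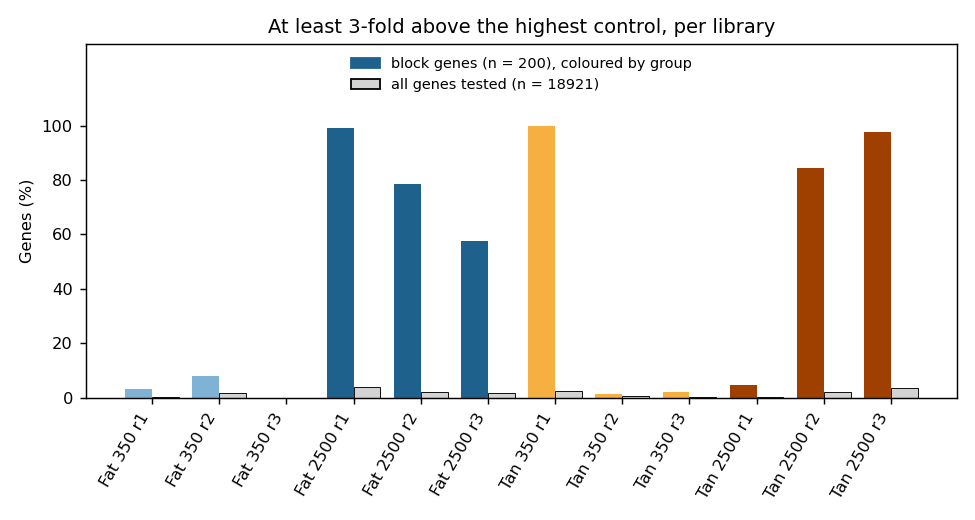
Percentage of genes with a value of at least 10 and at least 3 times the highest control in each of the 12 exposed libraries (r1 to r3 are the replicates). Coloured bars are the 200 members and grey bars all 18921 genes tested; Tancarville 350 r1 is the library that chose the members.

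Fatouville 2500 mg/L was compared with Control, a contrast of which the rule had used only the limit on Control 3. In this and the other comparisons, values were tested with limma on log2(value + 1), in a model of the 12 libraries outside Tancarville 350 mg/L. That group was left out because the members were chosen by the spread inside it. The limits on Control 3 and Fatouville 350 mg/L replicate 2 still enter the spread of this model. The 3 exposed values all lay above the 3 control values in 167 of the 199 members that passed the filter, and below them in 0. Of all genes tested, 12.3% lay above and 13.0% below. The filter read the exposed pools too. Without it, 199 of all 200 members had a positive log2 fold change, and the exception, LOC111713737, was at -0.60. All 199 that passed had a positive one, with a median of 4.04 against 0.01 for all genes tested. Despite these sizes, 0 members passed the limma adjusted threshold of 0.05 (background 0.0423%, 8 genes), while 165 had an unadjusted limma p under 0.05 (background 21.1%), all with higher values. That count was 102 without Fatouville 2500 mg/L replicate 1 (background 22.3%) and 87 without Control 3 and Fatouville 350 mg/L replicate 2 (23.8%). The median SE was 1.38 for members and 0.19 for all genes, so the fold changes were large and the pools of 1 group far apart.

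The count of calls in that comparison depended on the tool. edgeR's quasi-likelihood test also called 0 members (background 0.0476%), with a smallest adjusted p of 0.0876. DESeq2 called 178, all with higher values, against 7.72% of genes tested, and left the adjusted p of 2 missing. A limma fit of these 6 libraries alone called 8. Without the filter on low values, the count at an unadjusted limma p under 0.05 was 165 of all 200 (background 19.1%).

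The members with the smallest limma p in this comparison were both of low level. LOC111701608 stood at 82.7, 21.2 and 60.5 normalised counts at Fatouville 2500 mg/L and at 0, 1.91 and 0 in the controls, with no overlap. It had 164 reads in the exposed group and 2 in the controls, a ratio of 88.4 (95% exact counting interval 24.1 to 736). Its difference was 5.09 on the log2 scale, SE 0.91 (adjusted p = 0.0641, limma), and with so few control reads the size depends on the pseudocount. Over 17 alternatives its adjusted p ran from 0.00019 (DESeq2) to 0.326, with 5 under 0.05. LOC111704007 stood at 78.9, 38.2 and 13.8 against 0.939, 1.91 and 0, from 132 reads against 3 (ratio 47.5, counting interval 15.9 to 233, limma adjusted p = 0.0703). For the top-ranked LOC111705030 the group means were 6091 ± 5088 and 6.94 ± 1.40 (SD, n = 3), with a difference of 8.52 on the log2 scale, SE 2.61 (adjusted p = 0.135, limma). DESeq2 gave that gene an adjusted p of 9.22e-07 and edgeR's quasi-likelihood test 0.109, within a range of 9.22e-07 to 0.348 over 18 alternatives.

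Tancarville 2500 mg/L against Control gave the same direction with a wider spread. No overlap, with all exposed values higher, was seen in 115 of 199 members, against 8.62% of all genes tested. The log2 fold change was above 0 in all 199, with a median of 3.35 against -0.02 for all genes. Limma called 0 members (background 0.00529%, 1 gene), and 133 had an unadjusted limma p under 0.05, all higher (background 7.51%). edgeR called 0 (background 0.00529%), with a smallest adjusted p of 0.469, and DESeq2 called 149, against 1.64% of genes tested, with 1 adjusted p missing. Without replicate 1 of the exposed group, the 2 remaining pools lay above all controls in 195 members, 98.0%, and limma called 20, all higher, with a median log2 fold change of 4.67; over all genes tested 13.9% lay above without overlap and 0.143% were called. The count at an unadjusted limma p under 0.05 went from 133 to 187 without that pool (background 7.56%). It fell to 55 without replicate 3 (6.05%), with a median log2 fold change of 2.39, and to 68 without replicate 2 (6.48%). It was 79 without Control 1 (6.03%), 65 without Control 3 (4.27%) and 66 in a fit of the 6 libraries alone (8.78%). Without Control 3 and Fatouville 350 mg/L replicate 2 it was 39 (5.06%).

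LOC111703914 had the smallest limma p of the members here, at 6.72, 42.0 and 116 normalised counts in the exposed pools and 1.88, 0 and 0 in the controls. It had 165 reads against 2 (ratio 92.9, counting interval 25.3 to 773) with a difference of 4.57 on the log2 scale, SE 0.90 (adjusted p = 0.337, limma). LOC111704007, next in order, stood at 5.60, 28.0 and 76.1 (limma adjusted p = 0.441). All exposed values of both genes lay above their controls, with replicate 1 the lowest each time. LOC111705030 had 7898 ± 10558 against 6.94 ± 1.40 (SD, n = 3), a difference of 6.85 on the log2 scale, SE 2.61 (adjusted p = 0.630, limma). Its SD was larger than its mean, with replicate 1 at 8.95 and replicate 3 at 19892. DESeq2 gave it an adjusted p of 5.56e-07 and edgeR's quasi-likelihood test 0.469, within a range of 5.56e-07 to 0.971 over 18 alternatives.

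At Fatouville 350 mg/L the block stood near its control level with a small upward shift, at a median of 9.65 to 17.4 per pool against 7.57 to 11.5. The 3 values lay above the 3 controls in 25 of 199 members (12.6%), against 5.01% of all genes tested. They lay below in 1, LOC111713042, named after its values were seen, which was at 11.0, 7.53 and 8.68 against 11.3, 17.2 and 15.1 (5.6% of all genes lay below). The median log2 fold change was 0.53 against 0.00 for all genes, and 164 of 199 members had a positive one. Limma called 0 members (background 0.0%), with 0 at an unadjusted p under 0.05 (background 3.92%). That model also reads the widely spread pools at the higher concentration, and its median SE was 1.38 for members. A limma fit of the 6 libraries alone had a median SE of 0.59 and also called 0. In that fit 13 of 199 members had an unadjusted limma p under 0.05, all higher (background 3.8%). At the adjusted threshold edgeR (background 0.0%) and DESeq2 (0.0423%) called 0 members too, DESeq2 with 27 adjusted p missing. DESeq2 gave 1 member an unadjusted p under 0.05 (background 4.81%) and edgeR 0 (4.42%). Both groups here fall under limits of the rule, which removed genes high in Control 3 or Fatouville 350 mg/L replicate 2 alone.

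Among the members with the smallest limma p in that comparison, LOC111704007 stood at 3.99, 5.65 and 3.86 against 0.939, 1.91 and 0 in Control (limma adjusted p = 0.964). LOC111696842 stood at 19.97, 64.9 and 13.5 against 1.88, 17.2 and 9.46, with replicates 1 and 2 above all controls and replicate 3 not (limma adjusted p = 0.964). On the lower side, LOC111711467 stood at 2.00, 0 and 5.79 against 11.3, 4.78 and 3.78, so the groups overlapped (limma adjusted p = 0.964). LOC111704986 stood at 0.998, 0 and 0 against 5.63, 0.956 and 0.946, within a few reads of 0 in both groups (limma adjusted p = 0.966).

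The sites at 2500 mg/L were set against each other, a comparison in which no library had served the choice. No member had values of 1 site all above those of the other, in either direction, whereas 12.0% of all genes tested were higher and 10.9% lower at Fatouville without overlap. Limma called 0 members (background 0.0%), and 0 had an unadjusted limma p under 0.05 (background 17.9%); edgeR's quasi-likelihood test also gave 0 at both thresholds (backgrounds 0.0% and 17.9%). DESeq2 gave 0 at both too, with 61 adjusted p missing (backgrounds 3.37% and 17.2%). The median log2 fold change, Fatouville against Tancarville, was 0.59, with members from -0.86 to 2.58. Its size and direction depended on single pools. The limma median was 1.65 without Tancarville replicate 3, with 194 of 199 members above 0. In that fit 15 members had an unadjusted limma p under 0.05, a smaller share than the 16.3% of all genes. The median was 1.38 without Fatouville replicate 3. It was -0.78 without Tancarville replicate 1, with 12 members above 0, and -0.05 without Fatouville replicate 1, while DESeq2 gave -0.07 and edgeR -0.06 with all pools. Beside the members' median SE of 1.38, a difference of this size was not detectable, which does not show that the sites acted alike.

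LOC111701608 had the smallest limma p of this comparison, with 82.7, 21.2 and 60.5 at Fatouville and 2.24, 29.2 and 30.1 at Tancarville (log2 fold change 1.74, SE 0.91, limma adjusted p = 0.333). LOC111695977 followed, with 187, 128 and 81.7 against 0, 94.5 and 96.8 (log2 fold change 2.58, SE 1.53, limma adjusted p = 0.405). In both, Tancarville replicate 1 was the lowest of the 6 values. On the lower side were LOC111712241, with 430, 748 and 36.1 against 288, 176 and 1395 (limma adjusted p = 0.769), and LOC111713296, with 1239, 1275 and 191 against 708, 512 and 3110.0 (limma adjusted p = 0.779). In both genes the ranges of the sites overlapped in part, with the highest value in Tancarville replicate 3 and the lowest in Fatouville replicate 3.

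Members differed widely between pools of 1 group also where those pools had not chosen them. The SD of log2 values over 3 pools had a median over members of 1.84 at Fatouville 2500 mg/L and 2.67 at Tancarville 2500 mg/L, against 0.23 and 0.19 for all genes tested. The highest pool stood a median of 10.7 times above the lowest at Fatouville 2500 mg/L and 37.5 times at Tancarville 2500 mg/L (all genes 1.35 and 1.29). In Control and Fatouville 350 mg/L, where the rule had limited the spread, the members' median SD was 0.54 and 0.81 against 0.19 and 0.22. The part that low counts play in these values was not tested.

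The order of the pools was shared by most members. At Tancarville 2500 mg/L replicate 1 was the lowest for 189 of 200 and replicate 3 the highest for 166. At Fatouville 2500 mg/L replicate 3 was the lowest for 157 and the highest for 0, replicate 1 was the highest for 134 and replicate 2 for 66. The order of pools over all genes is not given beside these counts, so whether it is particular to the members was not tested. In the authors' deposited table, the largest Cook's distance among the 12 libraries outside Tancarville 350 mg/L fell on Tancarville 2500 mg/L replicate 3 for 118 members and on Fatouville 2500 mg/L replicate 1 for 49. Cook's distance measures how far a single library moves a gene's fit. These counts are not given over all genes. In Tancarville 2500 mg/L replicate 3 the median distance was 0.0794 for members and 0.0213 for all genes tested. In Fatouville 2500 mg/L replicate 1 it was 0.0225 and 0.0320, so the 49 is not read as a trait of the block.

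Members followed each other over the 12 libraries outside Tancarville 350 mg/L, of which the rule had read the controls and the Fatouville 350 mg/L pools to set its limits. The correlation of log2 levels over these 12 libraries had a median of 0.873 over 19900 pairs of members (5th to 95th percentile 0.566 to 0.974). Over the 6 libraries at 2500 mg/L, which the rule did not read, the median was 0.836 with a wider range (0.190 to 0.985). Against the median profile of the block it was at least 0.9 for 137 members and at least 0.7 for 195. The correlations rest on shared libraries and on a few high pools among them. No correlations of other gene pairs are given beside them, so whether they are particular to the block was not tested.

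The 5 members under 0.7 are named after their values were seen. LOC111713737 was the only one with a negative value, -0.519. It had 34 reads in the defining pool and 0 to 4 in every other library, 32.9 normalised counts against at most 4.48, and was the 1 member that did not pass the filter. LOC111713755, LOC111700144 and LOC111705202 (0.550, 0.650 and 0.671) were low in Fatouville 2500 mg/L replicate 2, at 2.12, 10.6 and 5.30, but at 76.1, 80.8 and 519 in replicate 1. LOC111701947 (0.624) was at 92.8 and 141 in Fatouville 350 mg/L replicates 1 and 2 and at 129 in Tancarville 2500 mg/L replicate 1, against 35.0 to 57.2 in the controls. It was below the controls in Fatouville 350 mg/L replicate 3, at 4.82, and among them in Tancarville 2500 mg/L replicate 2, at 47.9. The block is therefore not a single profile.

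**Figure D4:**
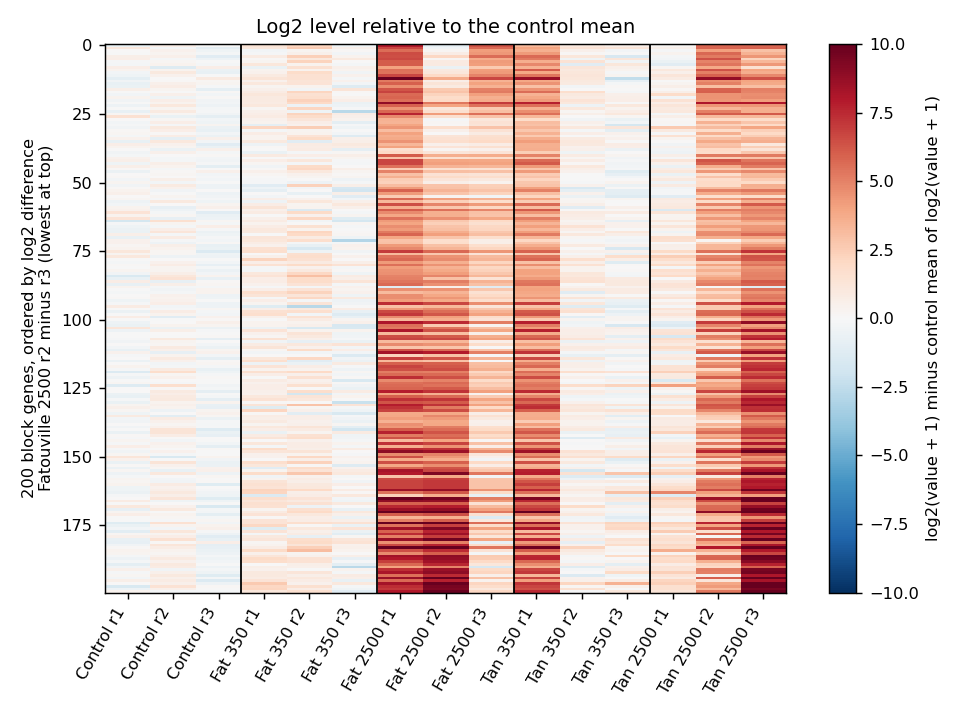
Log2(value + 1) of each of the 200 members (rows) in the 15 libraries (columns, r1 to r3 the replicates), minus the gene's mean over the controls. Rows are ordered by the difference between Fatouville 2500 r2 and r3, so that members at the top were lower in r2 than in r3 and members at the bottom higher.

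Members differed in how they stood in single pools at 2500 mg/L. Replicate 2 minus replicate 3 at Fatouville 2500 mg/L had a median of 2.26 on the log2 scale, but ran from -7.16 to 8.53, with 158 members above 0 and 42 below. Replicate 3 minus replicate 2 at Tancarville 2500 mg/L had a median of 1.74 and ran from -4.10 to 7.48, with 166 above 0 and 34 below. The same members tended to lie at the same end of both differences, which share no library. Across the 200 members the differences correlated at r = 0.860 (Spearman's rho 0.878), and across all genes tested at r = 0.360. Members vary far more between pools than all genes do, so these correlations are not like measures. The members are not independent of each other, and the pairs of pools and the direction of each difference are 1 choice among several. Both differences were at least 1 in 122 members and at most -1 in 13, and 2 members had them beyond 1 in opposite directions. Replicate numbers carry no order, and the 4 pools are only different pools.

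LOC111705030 had both differences above 0, at 4.77 for Fatouville and 2.39 for Tancarville, with 8141 and 298 in Fatouville replicates 2 and 3 and 19892 and 3795 in Tancarville replicates 3 and 2. LOC111713249, named after its values were seen, had both below 0, at -3.35 and -1.67. It stood at 13604 in Fatouville 2500 mg/L replicate 1 and 3829.6 in replicate 3 but at 375 in replicate 2, and at 6373 in Tancarville 2500 mg/L replicate 2 against 2002 in replicate 3. Its defining pool was at 2547, with fellows at 537 and 157, and its controls at 186, 224 and 193. The gene was also at 935 in Fatouville 350 mg/L replicate 2, against 237 and 205 in the other pools of that group, and at 128 in Tancarville 2500 mg/L replicate 1, below the controls. Neither gene was the most extreme member on either difference.

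**Figure D5:**
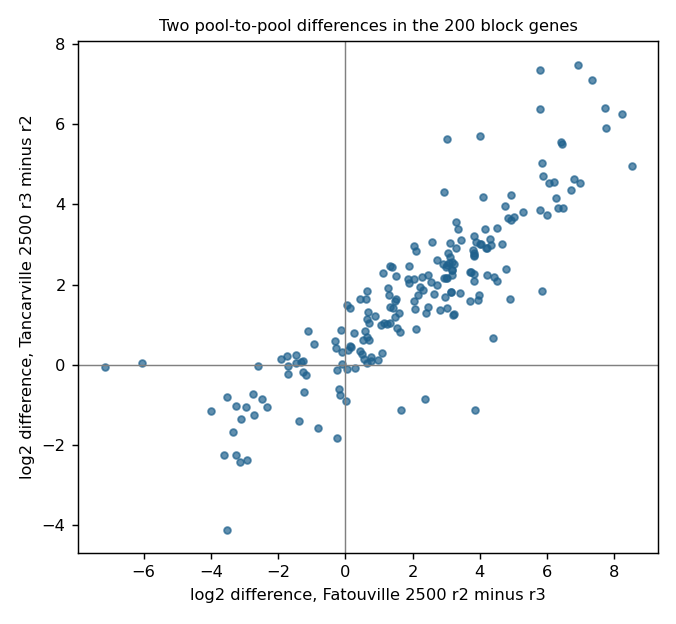
Log2 difference between Fatouville 2500 r2 and r3 (x axis) and between Tancarville 2500 r3 and r2 (y axis) for each of the 200 members (points). The cloud runs from lower left to upper right (r = 0.860), with 152 members above 0 on both axes and 28 below 0 on both.

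Genes next to the block and other blocks of the same kind were set beside it. The 64 genes that met the rule but ranked below 200 had medians of 186, 98.0 and 53.6 at Fatouville 2500 mg/L and 33.6, 96.9 and 235 at Tancarville 2500 mg/L. Their order of pools was that of the members. The 39 genes removed by the limit on Fatouville 350 mg/L replicate 2 were at 42.3 in that library and at 450, 21.2 and 80.6 at Fatouville 2500 mg/L, so that replicate 2 was the lowest there.

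Applying the thresholds of 30 and 3 times to Control 3 against Control 1 and 2 gave 210 genes, of which 0 were members. Their median was 182 in Control 3 and 144, 316 and 258 at Fatouville 2500 mg/L, but 6.28 in Tancarville 350 mg/L replicate 1 and 8.17 in Tancarville 2500 mg/L replicate 2, where the members stood at 273 and 146. In Tancarville 2500 mg/L replicate 3, where the members were at 525, it was 86.9, also above the 6.72 of replicate 1. Of those 210 genes, 1 (0.476%) was among the 309 that met the first thresholds here, 0.324% of these. The 309 are themselves a small part of all 23728 genes, so this low overlap is not read as a separation. The same thresholds applied to Fatouville 350 mg/L replicate 2 gave 379 genes, with 8 members among them. Of the 379, 34 (8.97%) were among the 309 (11.0%), a larger share than of the 210 or of all genes. Their median was 115 in that library, 19.3 in Tancarville 350 mg/L replicate 1 and 117, 20.1 and 69.0 at Fatouville 2500 mg/L. The limits of the rule kept overlapping genes out, so the small overlap with the members is not a result; the levels in the 2500 mg/L pools were not used by any of the 3 choices.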

How the data were processed

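Pools of 30 males were sequenced in 15 libraries. The table the authors deposited gives each gene's reads scaled by a library size factor, here called a signal or normalised count; all values above 0 were whole multiples of 1 read (100%, tolerance 1e-06), so whole reads were recovered. The deposited table also holds a score, Cook's distance. Tools listed in the submitters' processing notes, with no role, are DESeq2, HTSeq 0.11.2, Salmon and STAR. No genome build, annotation or strandedness was given in the sources used here, and reads of near-identical or overlapping genes could be assigned to either.

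Comparisons used 2-sided limma tests (version 3.58.1 in R 4.3.3) of log2(value + 1) over 12 libraries, with 1 term per group and moderation by trend and robust variance. Adjustment was by Benjamini-Hochberg over 18921 genes, those reaching 10 in 3 or more libraries. A fold change on this scale understates that of low genes. edgeR 4.0.16 and DESeq2 1.42.0 were alternatives on recovered reads. The limma test was checked on simulated counts that had the same dispersion for all genes and groups. Neither the members' large and unequal spread nor changes in genes of low level were simulated, so the check does not cover them. The p-values measure the spread between pools that the labels call biological replicates. All replicate pairs differed by more than sampling noise (chi-square per degree of freedom at least 12.46). Same-numbered pools of Tancarville 2500 mg/L and Control deviated together (r = 0.186, 0.167 and 0.428), a pairing that comes from the data and not from the labels.

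The members, lists and tests were chosen with earlier results of these data known. Named genes are the 2 members highest in rank and in level, the last inside and first outside the ranking, and up to 2 members per direction and comparison with the smallest p; others are marked. The 26 lists of product-name patterns matched 0 identifiers, so no list is reported.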

Additional observations from a re-analysis of the deposited data

How the results depend on the processing

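Against Control at Fatouville 2500 mg/L, limma called 0 members; the count was 178 with DESeq2, 8 in a fit of the 6 libraries alone (0.264% of all genes called) and 2 with quantile normalisation (0.354%). It was 3 without Control 3 and Fatouville 350 mg/L replicate 2, an alternative chosen after the data were seen, where 6.19% of all genes were called, a larger share than of members. With each replicate left out it was 0 to 2 (2 without Control 3, with 2.61% of all genes called). At Tancarville 2500 mg/L it was 149 with DESeq2 and 0 to 20 with replicates left out (20 without Tancarville 2500 mg/L replicate 1). With the replicate block the count stayed at 0 in all 4 comparisons. Between the sites at 2500 mg/L, same-numbered pools deviated in opposite directions (r = -0.367, -0.321 and -0.406), the cause of which was not tested. For both Fatouville groups against Control the signs were mixed (r from -0.161 to 0.129). With replicates left out, the share of members without overlap was 0% to 2.51% between the sites and 57.8% to 98.0% for Tancarville 2500 mg/L. For Fatouville 350 mg/L it was 16.1% to 40.2%, and 7.54% with all pools and a 2-fold difference also asked for. Groups of 2 pools separate more easily than groups of 3. Over all genes, the share higher at Tancarville 2500 mg/L rose from 8.62% to 13.9% without its replicate 1. The other shares over all genes were not computed, so nothing is read from the other ranges. The control level of the block was 3.03 for the top 100 members and 3.68 for all 264 genes, on the log2 scale. LOC111712241 and LOC111713296, lower at Fatouville than at Tancarville at 2500 mg/L, turned higher without Fatouville replicate 3 (log2 fold change 0.45 and 0.27) and without Tancarville replicate 3 (0.02 and 0.16); with replicates left out they ran down to -1.72 and -1.14; the cause was not tested. A stricter fold of 5 left 192 genes meeting the rule, a minimum of 100 left 194 and no limits 309.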
